A study of Homo sapiens with 30 samples.

Results

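The last step of a low-dose radiation series, from 7.5 to 10 cGy, was followed in messenger RNA of GM15036 and GM15510, 2 established human lymphoblastoid lines. The comparison holds the 6 arrays labelled 10 cGy and the 6 labelled 7.5 cGy, 3 per line and dose, which are 12 of the 30 arrays of the series. The others cover 1, 2.5 and 5 cGy. Per the labels, cells of all 4 groups were kept in suspension in MEM with serum and exposed to caesium-137. The sample labels write the dose as cGy, while the design text prints the same figures as Gy. The labels were followed. No unirradiated cells were analysed here, the sources used here do not give the time from exposure to RNA extraction, and each group is a single cell line at a single dose. The sources do not say whether the 3 arrays of a group were grown separately, so p-values speak of the scatter between these arrays, which may be technical.

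Lymphoblastoid lines are B lymphocytes made to grow without limit by Epstein-Barr virus, and they keep dividing while they also make immunoglobulin and present antigen. Ionising radiation breaks DNA. The breaks activate checkpoint kinases and p53, which at sufficient doses raises CDKN1A, MDM2, BAX and FAS and holds cells before mitosis, when the cyclin B genes and other G2/M genes are repressed. The comparison asks whether RNA levels differed between the top 2 doses, in each line and in both.

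The array signals were first brought to a common level and are given below as scaled signals, and changes are log2 differences of 10 cGy over 7.5 cGy. A probe set is called when limma's Benjamini-Hochberg adjusted p for the change is below 0.05. The unscaled arrays differed in brightness, the trimmed mean signal. GM15036 had 37.8, 29.1 and 30.2 at 7.5 cGy and 18.4, 14.1 and 33.8 at 10 cGy, and 2 of its 3 arrays at 10 cGy were the dimmest of the 12. GM15510 had 43.8, 86.2 and 73.2 at 7.5 cGy and 112, 91.1 and 64.5 at 10 cGy, with overlapping doses. The 3-prime over 5-prime log2 ratio of the ACTB control probe sets, a sign of RNA or amplification quality, averaged 5.4 ± 0.154 (SD, n = 3) before the step and 5.20 ± 0.153 after it for GM15036. For GM15510 it rose from 3.78 ± 0.375 to 5.16 ± 0.0964, without overlap of the doses. Its ACTB 3-prime control had a scaled signal of 369 ± 76.2 at 7.5 cGy and 870 ± 161 at 10 cGy, against 27.2 ± 7.82 and 24.2 ± 3.32 for the 5-prime control. The GAPDH ratio was level in both lines, at 2.82 and 2.84 in GM15036 and at 2.43 and 2.45 in GM15510. So 2 technical measures moved with the step. The ACTB ratio did so in GM15510. Mean brightness fell from 32.4 to 22.1 in GM15036 and rose from 67.7 to 89.1 in GM15510, with arrays of the doses overlapping in both lines. The part of these measures in the results was not tested beyond the alternative fits given below. Correlations between arrays of a group were 0.909 to 0.972, and those between the doses of a line overlapped them. In GM15036 they were 0.937 to 0.944 within 7.5 cGy, 0.909 to 0.926 within 10 cGy and 0.914 to 0.944 between the doses. In GM15510 they were 0.949 to 0.957 within 7.5 cGy, 0.96 to 0.972 within 10 cGy and 0.938 to 0.961 between the doses.

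**Figure D1:**
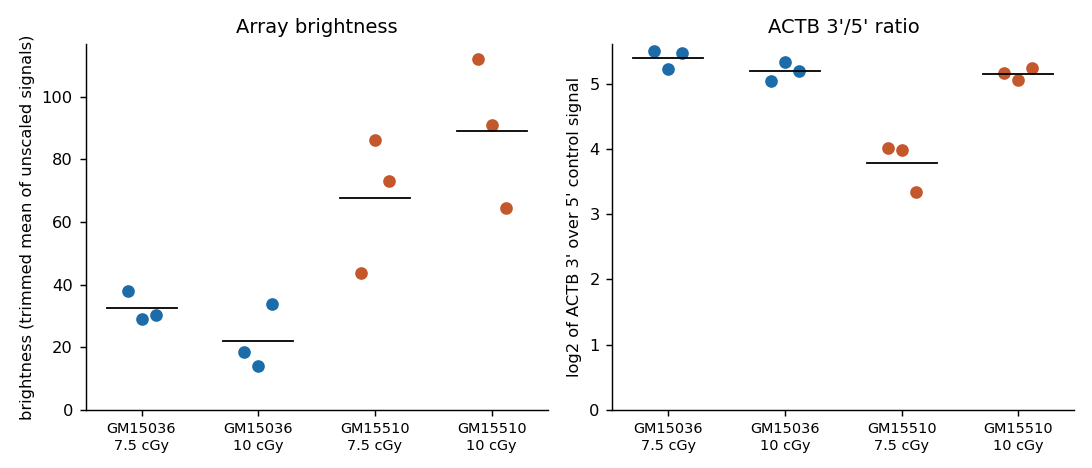
Brightness (left, trimmed mean of unscaled signals, linear axis) and the log2 ratio of the 3-prime to the 5-prime ACTB control (right) of the 12 arrays, with GM15036 in blue and GM15510 in orange; points are arrays and bars are means of 3. The dimmest arrays, at 14.1 and 18.4, are GM15036 at 10 cGy, and the ACTB ratio rose between the doses in GM15510, from a mean of 3.78 to 5.16.

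The label of the cells was checked against markers. Of 23 B cell genes 19 were measured, and their summed scaled signal was 4500 to 4850 at 7.5 cGy and 4930 to 4940 at 10 cGy in GM15036, and 3890 to 3940 and 4500 to 4630 in GM15510. Only 5 of 21 T and NK cell markers passed the filter on low signals, with sums of 154 to 242 over the 12 arrays. Of 17 monocyte markers 5 passed, with sums of 45.1 to 86.8. Of 16 fibroblast markers 7 passed, with sums of 138 to 304. Of 12 erythroid markers 2 passed, with sums of 25.7 to 56.1 in GM15036. In GM15510 the erythroid sums were 48.5 to 68.4 at 7.5 cGy and 81.5 to 84.8 at 10 cGy. No marker of T, NK, monocyte, erythroid or fibroblast cells was called in either line, but the T cell marker LCK was called for the difference between the steps.

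With the arrays scaled, more probe sets were called in GM15510 than in GM15036, an order that both centrings turned round (520 against 943 with median centring, 895 against 926 with centring after scaling). GM15036 had 532 called probe sets of 13329 tested (3.99%), of which 167 were higher at 10 cGy and 365 lower. GM15510 had 1301 (9.76%), with 649 higher and 652 lower. For the mean of the 2 steps, with the line kept as a factor, 712 probe sets were called (5.34%), 278 higher and 434 lower. The difference between the steps was called for 1123 probe sets (8.43%). The arrays of the 2 doses did not overlap for 18.5% of all probe sets in GM15036 and for 28.5% in GM15510, and for 2.42% they were apart in the same direction in both lines. Over the 8101 genes represented by 1 probe set each, 1.14% were called higher and 2.94% lower in GM15036, 5.1% and 4.86% in GM15510, 2% and 3.43% for the mean step, and 4.9% and 3.59% for the difference. These shares are the background for every list below.

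How the arrays were levelled decided the balance of directions. With each unscaled array centred on its median, GM15036 had 943 calls, 6 higher and 937 lower, and GM15510 had 520, 413 higher and 107 lower. The median change of all probe sets was then -0.20 in GM15036 and 0.09 in GM15510, against 0.03 and 0.01 after scaling. With centring added after scaling, these medians were -0.13 and 0.05, and the calls 36 higher and 890 lower in GM15036 and 549 higher and 346 lower in GM15510. The mean step had 23 higher and 169 lower with median centring alone, and 110 higher and 487 lower with centring after scaling. The difference had 638 higher and 485 lower as reported, 1279 and 47 with median centring alone, and 1019 and 150 with centring after scaling. Quantile normalization gave 222 higher and 383 lower in GM15036 and 592 higher and 580 lower in GM15510. A change of a gene is therefore read relative to the other genes of its array.

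The calls of GM15036 rest on the spread shared by all 30 arrays. When this line was fitted alone 73 probe sets were called, and without its 2 dimmest arrays, which leaves a single array at 10 cGy, 58 were. Leaving out single arrays gave 267 to 612 calls. The lowest count was without array c at 7.5 cGy, and those without array b at 7.5 or at 10 cGy were 331 and 320. GM15510 alone gave 1293 calls, and with the ACTB ratio as a covariate 780. A fit of the mean step on the 12 arrays with the line as an additive block, in which the disagreement of the lines counts as error, called 86 probe sets.

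Among the genes chosen for naming, 53 of the 61 named calls of GM15036 missed the threshold without the 2 dimmest arrays and 44 with the line alone. In GM15510 22 of 77 named calls were lost with the ACTB ratio as a covariate, among them TPI1, NDUFB2, CYC1, PSMA7, PSMB1, HMMR, RPL22, PPP1CB, DNAJC3, XBP1, CD38 and HNRNPD. Median centring lost 23 of the 77, among them HLA-B, HLA-C, TAP1, CD74, HSPA5, DNAJC3, XBP1, CD38, PSMD14, PRDX3, HSP90AB1, GAPDH, ADM and CKS2, whose changes kept their direction.

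**Figure D2:**
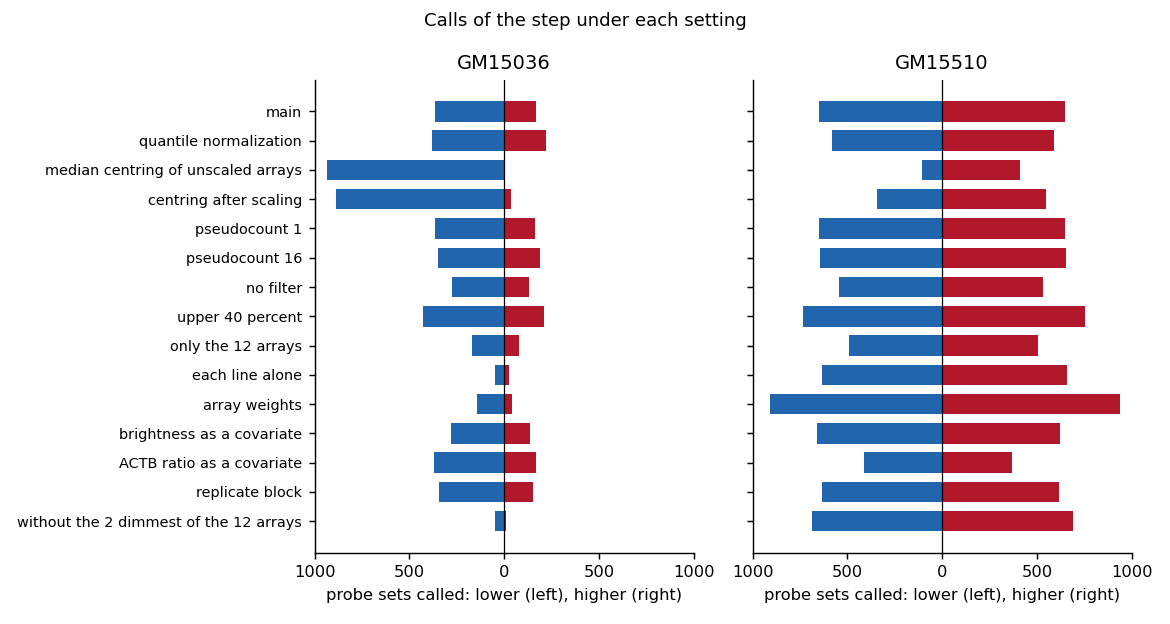
Number of probe sets called for the step in GM15036 (left) and GM15510 (right) under each way of processing or fitting; bars to the right count probe sets higher at 10 cGy and bars to the left lower ones. GM15036 ranges from 58 to 943 calls with 532 as reported, and GM15510 from 520 to 1846 with 1301 as reported.

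The steps of the 2 lines had little in common. Of the 532 calls of GM15036, 131 (24.6%) were also called in GM15510, and these are 10.1% of the 1301 calls there. Among the 131, 13 were higher in both lines, 35 lower in both and 83 opposite. The lines had the same sign for 48.2% of all probe sets, for 41.2% of the calls of GM15036 and for 41.4% of those of GM15510. Across the 13329 probe sets, which are not independent replicates, Pearson's r of the steps was -0.04. The steps themselves had opposite signs for 1024 of the 1123 probe sets called for the difference. A test of the difference favours steps of opposite sign, so this count describes those calls and tests nothing.

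**Figure D3:**
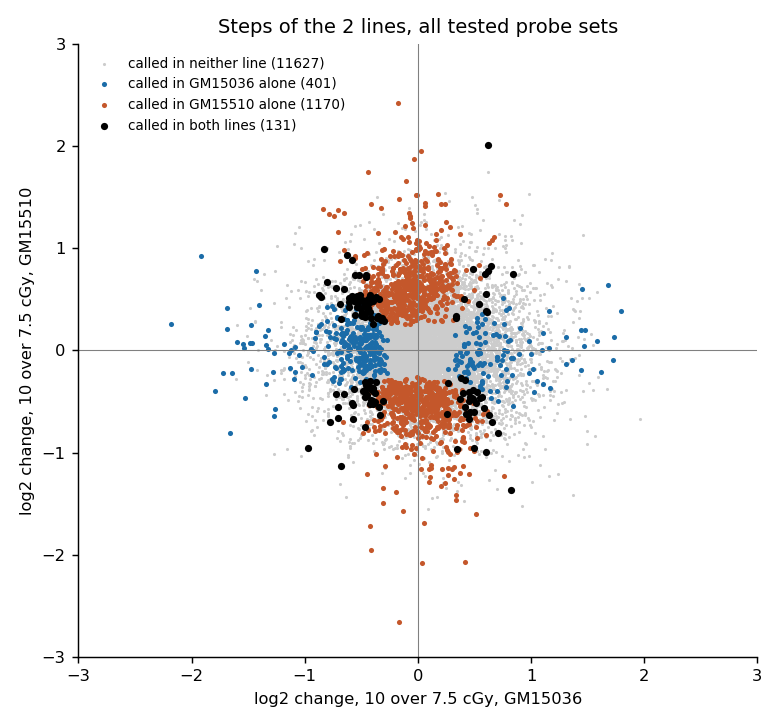
Log2 change from 7.5 to 10 cGy in GM15036 (horizontal) against that in GM15510 (vertical), 1 point per tested probe set; coloured points are called in 1 line and black points in both. The black points number 131, and 83 of them lie in the quadrants of opposite direction.

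Of 48 measured G2/M genes, which drive mitosis, 8 were called lower and none higher at 10 cGy in GM15036. Their median change was -0.13, and 18 of the 48 had changes above 0. In GM15510 5 were higher and 4 lower, with a median of 0.04. The GM15036 median was also -0.13 under quantile normalization, and the count was 4 when the line was fitted alone and 3 without the 2 dimmest arrays. In bulk RNA, fewer cells in mitosis and less of each RNA per cell cannot be told apart.

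CCNB1, the cyclin that activates CDK1 for entry into mitosis, had scaled signals of 256, 274 and 259 at 7.5 cGy and 163, 159 and 173 at 10 cGy in GM15036. The doses were far apart, and the change was -0.66 ± 0.0881 (SE; limma adjusted p = 4.62e-05). GM15510 had 468, 580 and 544 at 7.5 cGy and 474, 500 and 427 at 10 cGy, which overlap, with a change of -0.18 (adjusted p = 0.239). Its paralogue CCNB2 went from 217, 188 and 206 to 112, 109 and 136 in GM15036, a change of -0.76 ± 0.0959 (adjusted p = 1.99e-05). GM15510 had CCNB2 signals of 385, 328 and 357 and then 286, 281 and 308. That change of -0.28 missed the threshold (adjusted p = 0.0552), although the doses did not overlap. Over the lower doses the CCNB1 level of GM15036 was 8.15, 8.21 and 8.42 (log2 means at 1, 2.5 and 5 cGy), then 8.06 at 7.5 and 7.40 at 10 cGy, the lowest of the 5 doses. CCNB1 and CCNB2 kept their call in GM15036 in every alternative fit and whichever array was left out.

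MAD2L1, a spindle checkpoint protein, fell by 0.72 in GM15036 (adjusted p = 9.04e-04), from 336, 223 and 291 to 169, 153 and 186. It was 262, 231 and 259 and then 340, 327 and 281 in GM15510, with a change of 0.33 (adjusted p = 0.108). CKS2, which binds cyclin-dependent kinases, fell by 0.60 in GM15036 (adjusted p = 0.004), from 479, 420 and 470 to 285, 291 and 321. In GM15510 CKS2 rose by 0.51 (adjusted p = 0.00556), from 259, 238 and 195 to 354, 285 and 350, a call that is lost without array 3 at 7.5 cGy (adjusted p = 0.0638). PTTG1, the securin that guards sister chromatids, changed by -0.29 in GM15036 (adjusted p = 0.154) and rose by 0.48 in GM15510 (adjusted p = 0.00502). CENPF, a kinetochore protein, was flat in GM15036 (0.08, adjusted p = 0.694) and fell by 0.74 in GM15510 (adjusted p = 1.55e-06), from 325, 355 and 332 to 202, 200 and 201. Another CENPF probe set changed by 0.12 in GM15036 and by -0.09 in GM15510 (adjusted p = 0.861). Its difference between the lines, -0.21, was not called (adjusted p = 0.732). HMMR, which organises the spindle, changed by -0.46 and -0.38 in the 2 lines, both called, with a mean step of -0.42 ± 0.0791 (adjusted p = 9.37e-04). The HMMR call of GM15036 is lost without array c of either dose (adjusted p up to 0.115) and that of GM15510 without 1 of 3 arrays, whereas its mean step kept its call whichever array was left out. The difference between the steps of the lines was itself called for CCNB1, CCNB2, MAD2L1, CKS2, PTTG1 and CENPF.

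The promoters of these genes are shown because G2/M genes are known to be repressed together through 2 elements near their start sites, the CCAAT box bound by NF-Y and the cell cycle genes homology region. Each line gives the 250 bases before the start site from RefSeq, build GRCh38.p14, on the strand of the gene and 5′ to 3′. Capitals mark CCAAT and TTTGAA on either strand, so that ATTGG and TTCAAA are the same letters read on the other strand. The windows are chr5:69166900-69167149 (plus strand) for CCNB1, chr15:59104896-59105145 (plus) for CCNB2, chr9:89310945-89311194 (plus) for CKS2 and chr5:163460382-163460631 (plus) for HMMR.
CCNB1: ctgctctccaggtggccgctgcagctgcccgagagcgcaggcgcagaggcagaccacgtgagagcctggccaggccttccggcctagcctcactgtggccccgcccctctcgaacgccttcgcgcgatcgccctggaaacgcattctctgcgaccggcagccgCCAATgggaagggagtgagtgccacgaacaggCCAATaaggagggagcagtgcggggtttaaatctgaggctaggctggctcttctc
CCNB2: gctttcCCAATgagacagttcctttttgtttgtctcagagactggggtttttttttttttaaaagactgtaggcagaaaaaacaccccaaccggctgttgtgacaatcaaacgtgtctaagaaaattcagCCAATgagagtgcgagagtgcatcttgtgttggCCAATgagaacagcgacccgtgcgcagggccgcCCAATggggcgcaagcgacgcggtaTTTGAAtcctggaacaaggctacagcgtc
CKS2: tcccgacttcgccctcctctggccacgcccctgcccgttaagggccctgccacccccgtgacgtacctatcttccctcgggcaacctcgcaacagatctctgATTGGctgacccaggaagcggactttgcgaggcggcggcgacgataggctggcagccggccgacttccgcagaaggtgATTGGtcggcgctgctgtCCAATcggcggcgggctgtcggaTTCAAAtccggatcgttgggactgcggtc
HMMR: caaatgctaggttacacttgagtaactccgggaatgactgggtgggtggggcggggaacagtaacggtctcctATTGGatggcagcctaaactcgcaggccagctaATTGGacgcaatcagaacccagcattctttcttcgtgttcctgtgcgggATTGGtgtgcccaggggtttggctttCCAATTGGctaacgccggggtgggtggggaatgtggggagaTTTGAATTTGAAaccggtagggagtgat
CCAAT stands 2 times in the CCNB1 window, 4 times in that of CCNB2, 3 times in that of CKS2 and 5 times in that of HMMR, 2 of which overlap. TTTGAA stands 1 time each for CCNB2 and CKS2, 29 to 24 bases before the start, and 2 times for HMMR, and the CCNB1 window holds none. A window was found for 40 of the 48 measured G2/M genes, and 32 of these (80%) hold CCAAT, 22 (55%) TTTGAA and 20 (50%) both. Over all 35116 promoter windows the shares are 32%, 13.3% and 4.69%. That background counts every window, with several for some genes and with genes that were not measured. The G2/M genes are counted by their first window alone. All 7 called-lower genes of GM15036 that have a window hold CCAAT and 5 hold TTTGAA. These are matches of letters, and binding was not measured.

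Calls among enzymes of glycolysis and of respiration were all lower in GM15036. Of 32 glycolysis and hypoxia genes 5 were called lower and none higher (median -0.13, 11 above 0), and of 62 subunits of oxidative phosphorylation 7 were lower and none higher (median -0.13, 15 above 0). GM15510 had 3 higher and 5 lower among the first and 4 higher and 8 lower among the second, with medians of 0.01 and 0.02. Under quantile normalization the GM15036 medians were -0.11 and -0.10, with 1 respiratory subunit higher. No respiratory subunit of GM15036 was called with the line fitted alone or without the 2 dimmest arrays, and 2 glycolysis genes were in each case.

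ENO1, enolase, fell most firmly. Its scaled signals in GM15036 were 707, 848 and 821 at 7.5 cGy and 403, 544 and 473 at 10 cGy, a change of -0.74 ± 0.0919 (adjusted p = 1.88e-05) that held in every alternative and whichever array was left out. In GM15510 ENO1 had 965, 858 and 895 and then 948, 988 and 1010, with a change of 0.12 (adjusted p = 0.547), and the steps differed by 0.86 ± 0.130 (adjusted p = 5.08e-05). Another ENO1 probe set gave -0.17 in GM15036 (adjusted p = 0.861). PGK1, which forms ATP in the pathway, fell by 0.51 in GM15036 (adjusted p = 0.0057), and another of its probe sets by 0.52 (adjusted p = 0.00123). In GM15510 it changed by 0.06. TPI1, triosephosphate isomerase, fell by 0.58 in GM15036 and rose by 0.53 in GM15510 (adjusted p = 0.00105 and 8.38e-04), with the same directions in another probe set. The probe set that stands for TPI1 in the list changed by 0.06 in GM15036 and by 1.42 in GM15510. GAPDH changed by -0.24 in GM15036 (adjusted p = 0.124) and fell by 0.50 in GM15510 (adjusted p = 2.46e-04), from 2050, 1940 and 1810 to 1270, 1400 and 1410. Other GAPDH probe sets fell in GM15510 by 0.54 and 0.36, both called. The GAPDH 3-prime control, in contrast, moved more in GM15036. Its scaled signal went from 1020 ± 21.4 to 794 ± 55 there and from 1310 ± 54.7 to 1180 ± 91.1 in GM15510.

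Among the hypoxia genes, the histone demethylase KDM3A fell by 0.62 in GM15036 (adjusted p = 0.00395) and changed by -0.17 in GM15510. HIF1A, the oxygen-sensing transcription factor, was 271, 314 and 356 and then 440, 453 and 429 in GM15510, a rise of 0.49 (adjusted p = 0.00353), against -0.16 in GM15036. ADM, the vasodilator peptide adrenomedullin, fell by 0.62 in GM15510 (adjusted p = 0.00515) and changed by 0.35 in GM15036 (adjusted p = 0.198).

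CYC1, cytochrome c1 of complex III, was lower in both lines. It went from 134, 181 and 157 to 97.1, 90.5 and 106 in GM15036 (-0.66, adjusted p = 0.00289) and from 130, 131 and 156 to 103, 103 and 100 in GM15510 (-0.43, adjusted p = 0.0301). The GM15510 call is lost without any 1 of 4 arrays (adjusted p up to 0.163), and also with the ACTB ratio as a covariate. ATP5MC2, part of the rotor of ATP synthase, fell by 0.67 in GM15036 (adjusted p = 0.00558) and changed by 0.17 in GM15510. NDUFB2 of complex I went the other way in GM15510, from 70.4, 50.8 and 62.8 to 113, 104 and 108 (0.79, adjusted p = 0.00174), and another of its probe sets changed by 0.05. PRDX3, the mitochondrial peroxiredoxin that removes hydrogen peroxide, fell in both lines, by 0.70 in GM15036 and by 0.56 in GM15510 (adjusted p = 3.68e-04 and 0.00102). Another PRDX3 probe set changed by -0.00 and -0.24.

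Subunits of the proteasome, the complex that degrades tagged proteins, had the lowest median of the GM15036 lists drawn in the plot of lists, -0.24, with 28 of 32 genes below 0. Of the 32 genes 5 were called lower and none higher, and none was called with the line alone or without the 2 dimmest arrays. In GM15510 7 were higher and 3 lower, with a median of 0.07, and with the ACTB covariate 2 and 2. PSMD14, the deubiquitinase of the regulatory particle, fell in both. It went from 837, 856 and 932 to 644, 695 and 649 in GM15036 and from 1330, 1270 and 1250 to 874, 908 and 888 in GM15510, changes of -0.40 and -0.53 with a mean step of -0.46 ± 0.0528 (adjusted p = 1.20e-06). PSMA7, a subunit of the core ring, had changes of -0.48 (adjusted p = 0.0069) and -0.39 (adjusted p = 0.0146). These calls are lost without array c at 7.5 cGy in GM15036 (adjusted p = 0.0694) and without array 1 of either dose in GM15510 (up to 0.0876). Another PSMA7 probe set changed by -0.17 in GM15036 and by -0.09 in GM15510, neither called. PSMB1, another core subunit, was opposite, falling by 0.45 in GM15036 (adjusted p = 0.00286) and rising by 0.43 in GM15510 (adjusted p = 0.00138).

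Of 23 heat shock and chaperone genes 4 were called lower and none higher in GM15036 (median -0.11), 2 with the line alone and 1 without the 2 dimmest arrays. HSP90AB1, the constitutive cytosolic HSP90, fell in both lines, from 698, 798 and 825 to 481, 425 and 500 (-0.72, adjusted p = 1.61e-04) and from 1190, 982 and 969 to 745, 779 and 798 (-0.43, adjusted p = 0.00781). The second call is lost without array 1 at 7.5 cGy (adjusted p = 0.0838). Another HSP90AB1 probe set changed by -0.33 in GM15036 and by -0.16 in GM15510, neither called. CCT4, a subunit of the ring that folds actin and tubulin, fell by 0.49 in GM15036 (adjusted p = 9.28e-04) in every alternative and whichever array was left out, and changed by -0.21 in GM15510 (adjusted p = 0.134). CCT2, of the same ring, rose by 0.51 in GM15510 (adjusted p = 0.00104). In GM15036 it changed by -0.41 (adjusted p = 0.02), a call lost without any 1 of 4 arrays. Another CCT2 probe set changed by -0.17 in GM15036 and by 0.24 in GM15510, neither called.

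**Figure D4:**
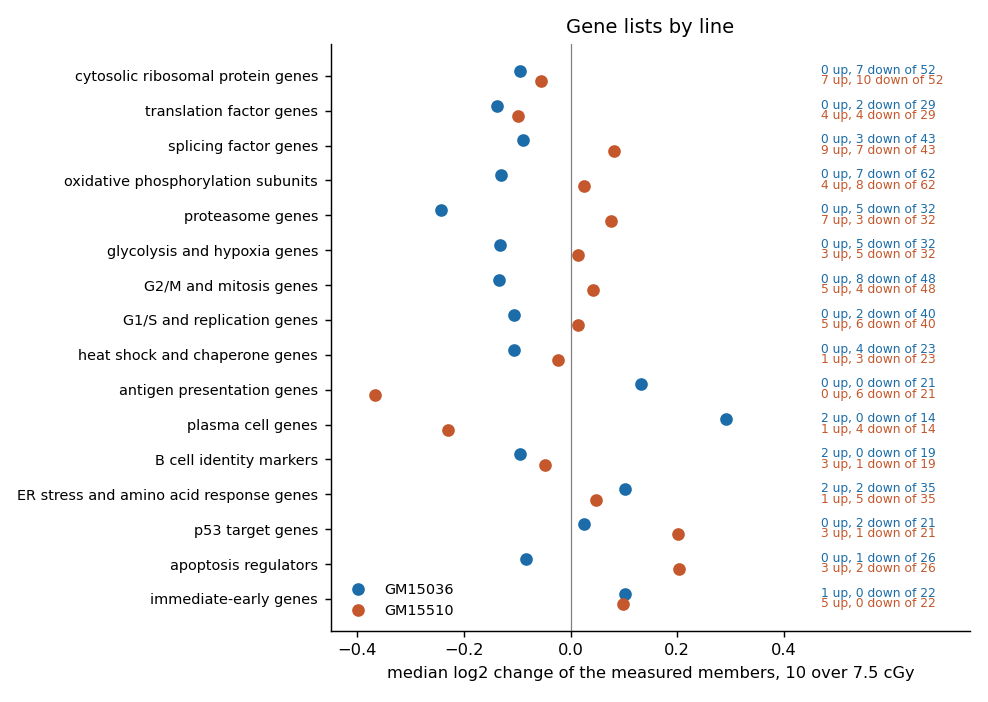
Median log2 change from 7.5 to 10 cGy of the measured members of 16 gene lists in GM15036 (blue) and GM15510 (orange), with the number of members called up (higher) and down (lower) at the right. GM15036 ranges from -0.24 for proteasome genes to 0.29 for plasma cell genes, and GM15510 from -0.37 for antigen presentation genes to 0.20; under median centring the GM15036 medians shift down and those of antigen presentation, p53, ER stress, immediate-early and plasma cell genes turn negative, and the GM15510 medians of ribosomal, translation, heat shock and B cell genes turn positive.

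Ribosomal protein genes were mixed. GM15036 had 7 of 52 lower and none higher, and GM15510 7 higher and 10 lower, with medians of -0.10 and -0.06. The GM15036 count was 2 with the line alone and 0 without the 2 dimmest arrays, and with the ACTB covariate GM15510 had 4 higher and 14 lower. The GM15510 median changed sign with the scaling, to 0.03 under quantile normalization and 0.06 under median centring. RPL8, a large-subunit protein, went from 518, 553 and 512 to 354, 301 and 404 in GM15036 and from 287, 300 and 237 to 498, 557 and 475 in GM15510, changes of -0.58 and 0.89 (adjusted p = 0.00485 and 8.19e-06). RPL22 was also opposite, at -0.50 and 0.34 (adjusted p = 7.98e-04 and 0.00842). The GM15510 call of RPL22 is lost without array 1 at 7.5 cGy (adjusted p = 0.0819), and 2 of its other probe sets fell there, by 0.48 and 0.38, while another rose by 0.63. RPL30 fell by 0.46 and RPS16 by 0.61 in GM15036 (adjusted p = 0.00507 and 0.0052), with 0.03 and 0.11 in GM15510, and another RPS16 probe set changed by -0.04 in GM15036. RPL27A changed by 0.06 in GM15036 and rose by 0.90 in GM15510 (adjusted p = 9.97e-06). Ribosomal protein genes have many processed copies in the genome, and probe sets may read more than 1 of them.

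Translation factors gave 2 of 29 lower and none higher in GM15036, and 4 higher and 4 lower in GM15510. EEF2, which moves the ribosome along the message, was 1640, 1510 and 1670 and then 1060, 1260 and 1240 in GM15036, a change of -0.44 that missed the threshold (adjusted p = 0.0768). In GM15510 it rose by 0.74 (adjusted p = 6.02e-04), from 834, 766 and 676 to 1390, 907 and 1610. EIF3H, a subunit of initiation factor 3, fell by 0.80 in GM15510 (adjusted p = 1.32e-06), from 1760, 1670 and 1650 to 891, 993 and 1030, and changed by -0.18 in GM15036.

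Of 21 measured antigen presentation genes 6 were called lower and none higher in GM15510, and the median change was -0.37. In GM15036 none was called and the median was 0.13. The GM15510 median stayed below 0 under every scaling tried, at -0.19 under quantile normalization, -0.27 under median centring and -0.33 with centring after scaling, but the number called lower was 5, 0 and 5. With the ACTB ratio as a covariate it was 6. The GM15036 median turned negative under both centrings.

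HLA-B, a class I molecule that presents peptides to cytotoxic T cells, had scaled signals of 2030, 1820 and 2040 at 7.5 cGy and 1150, 1310 and 1310 at 10 cGy in GM15510, a change of -0.64 ± 0.0889 (adjusted p = 8.40e-06). GM15036 went from 1400, 1400 and 1440 to 1640, 1580 and 1750. Those doses did not overlap either, but the change of 0.23 was not called (adjusted p = 0.156). HLA-C fell by 0.63 in GM15510 (adjusted p = 1.05e-04) and changed by 0.24 in GM15036. Other probe sets gave -0.37 and -0.34 for HLA-B and -0.40, -0.68 and -0.75 for HLA-C in GM15510, of which 1 and 2 were called. Class I genes are near-identical, so that a probe set may read several of them. TAP1, a subunit of the transporter that loads class I, fell by 0.57 (adjusted p = 3.07e-04), from 811, 726 and 621 to 427, 494 and 530. CD74, the invariant chain of class II, fell by 0.53 (adjusted p = 1.27e-04), from 703, 601 and 633 to 406, 436 and 494. In GM15036 TAP1 changed by 0.17 and CD74 by 0.10, neither called. The steps of the lines differed for all 4, by -0.87 for HLA-B and HLA-C, -0.73 for TAP1 and -0.63 for CD74 (adjusted p from 3.46e-05 to 0.0012). The 2 other HLA-B probe sets changed by -0.05 and -0.16 in GM15036, and their differences of -0.32 and -0.18 were not called (adjusted p = 0.337 and 0.534). The HLA-B level of GM15510 over 1, 2.5, 5, 7.5 and 10 cGy was 10.64, 10.30, 10.38, 10.94 and 10.30 on the log2 scale, so that 7.5 cGy was the highest dose and 10 cGy stood at the level of 2.5 cGy.

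Some genes of plasma cells and of the ER stress response were called lower in GM15510. Of 14 plasma cell genes 4 were lower and 1 higher (median -0.23, below 0 under quantile normalization and both centrings), and of 35 ER stress genes 5 were lower and 1 higher, with a median of 0.05. With the ACTB ratio as a covariate 2 plasma cell and 2 ER stress genes were lower, and with median centring 3 and 0. GM15036 had 2 plasma cell genes higher and none lower, with a median of 0.29 that became -0.03 under median centring. Of the 35 ER stress genes, 2 were higher and 2 lower in GM15036, with a median of 0.10. The summed signal of the 14 plasma cell genes was 2280 to 2620 at 7.5 cGy and 1940 to 2070 at 10 cGy in GM15510, and 2830 to 2970 and 3030 to 3220 in GM15036.

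CNPY2, a resident of the endoplasmic reticulum, went from 453, 512 and 455 to 244, 229 and 231 in GM15510, a change of -0.996 ± 0.0919 (adjusted p = 5.10e-09). It was 309, 338 and 291 and then 366, 376 and 384 in GM15036 (0.26, adjusted p = 0.101). Its other probe sets gave -0.10 and -0.37 in GM15510, and the second of these was called (adjusted p = 0.0398). MZB1, which helps to assemble immunoglobulin, fell by 0.81 in GM15510 (adjusted p = 1.59e-06), from 493, 396 and 389 to 228, 244 and 248, against 0.28 in GM15036 (adjusted p = 0.114). IGHM, the mu heavy chain, went from 382, 323 and 325 to 160, 167 and 201 in GM15510 (-0.95, adjusted p = 1.59e-05), and from 254, 321 and 344 to 450, 428 and 417 in GM15036 (0.50, adjusted p = 0.0349). The GM15036 call is lost without any 1 of 4 arrays (adjusted p up to 0.163), and 3 other IGHM probe sets changed by -0.08, -0.30 and -0.68 in GM15510 without a call. HSPA5, the main chaperone of the endoplasmic reticulum, fell by 0.58 in GM15510 (adjusted p = 9.73e-06), from 1920, 1600 and 1740 to 1190, 1180 and 1130, against 0.10 in GM15036. DNAJC3, its co-chaperone, fell by 0.78 (adjusted p = 0.00192) and XBP1, the transcription factor of secretory cells, by 0.47 (adjusted p = 0.00502). In GM15036 DNAJC3 changed by 0.39 and XBP1 by -0.06. The difference between the lines was called for CNPY2, MZB1, IGHM, HSPA5 and DNAJC3 and not for XBP1 (-0.41, adjusted p = 0.111).

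The promoters of HSPA5 and XBP1 are shown because the endoplasmic reticulum stress response element, through which ATF6 acts, lies close to both start sites. Capitals mark the element, CCAAT and CCACG with any 9 bases between, searched on both strands. The windows are the 250 bases before the start in RefSeq, build GRCh38.p14, chr9:125241344-125241593 (minus strand) for HSPA5 and chr22:28800570-28800819 (minus) for XBP1, which has 2 windows of which the first is shown.
HSPA5: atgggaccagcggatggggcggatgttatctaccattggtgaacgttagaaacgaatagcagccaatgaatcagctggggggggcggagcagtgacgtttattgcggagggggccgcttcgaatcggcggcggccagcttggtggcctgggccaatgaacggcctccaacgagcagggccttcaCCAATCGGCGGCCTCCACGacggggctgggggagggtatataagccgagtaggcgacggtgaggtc
XBP1: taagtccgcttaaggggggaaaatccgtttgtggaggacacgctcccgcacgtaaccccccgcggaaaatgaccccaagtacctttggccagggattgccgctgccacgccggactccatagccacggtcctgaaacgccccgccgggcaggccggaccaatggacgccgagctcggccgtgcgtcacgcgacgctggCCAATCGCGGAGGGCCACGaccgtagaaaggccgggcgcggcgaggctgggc
The element lies 66 to 48 bases before the start of HSPA5 and 52 to 34 before that of XBP1. It is in 26 of 35116 promoter windows (0.074%), in 5 of 31 measured ER stress genes with a window (16.1%), and in 2 of the 5 of them called lower in GM15510. The share over all windows counts every window, and the ER stress genes are counted by their first window alone. ATF4, an activator of the amino acid response, moved against these genes, from 158, 156 and 175 to 261, 320 and 283 in GM15510 (0.80, adjusted p = 1.55e-06).

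Of 19 B cell genes 2 were higher and none lower in GM15036, and 3 higher and 1 lower in GM15510. PAX5, the factor that fixes B cell identity, rose in both lines. Its signals went from 754, 635 and 739 to 1190, 1100 and 959 in GM15036 and from 410, 354 and 332 to 514, 594 and 504 in GM15510, changes of 0.60 and 0.55 with a mean step of 0.58 ± 0.0743 (adjusted p = 8.52e-06). The GM15036 rise was not called under median centring or without the 2 dimmest arrays (adjusted p = 0.431 and 0.199). POU2AF1, a B cell coactivator, rose by 0.52 in GM15510 (adjusted p = 3.72e-05) and changed by -0.15 in GM15036. CD38, a surface enzyme of activated B cells and plasma cells, fell by 0.57 in GM15510 (adjusted p = 0.0021), from 307, 314 and 314 to 202, 200 and 225. TNFRSF17, the survival receptor BCMA, had a mean step of 0.34 ± 0.0663 (adjusted p = 0.00163), called whichever array was left out but under neither centring. In GM15036 its change of 0.33 lost the call without any 1 of the 6 arrays (adjusted p up to 0.0951) and was -0.00 under median centring, and in GM15510 its 0.34 lost the call without array 3 at 7.5 or 1 at 10 cGy (up to 0.0772).

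Of 22 immediate-early genes, which respond first to many stimuli, 5 were called higher and none lower in GM15510, with a median of 0.10, against 1 higher in GM15036. In GM15510 3 were higher with median centring, and 3 higher and 1 lower with the ACTB covariate. JUND, a subunit of AP-1, went from 137, 166 and 161 to 315, 302 and 324 in GM15510, a rise of 1.01 ± 0.106 (adjusted p = 9.96e-08), against 0.23 in GM15036 (adjusted p = 0.245). IER2 rose by 0.80 (adjusted p = 0.00237), from 114, 75 and 84.7 to 157, 154 and 168, against -0.13 in GM15036. MCL1, a short-lived protector from apoptosis, rose by 1.29 in GM15510 (adjusted p = 2.17e-07), from 85.9, 71.6 and 83.3 to 165, 214 and 233, and changed by -0.07 in GM15036. Of its 3 other probe sets, 2 rose in GM15510, by 0.47 and 0.42, and the third changed by -0.07. The log2 level of MCL1 in GM15510 was 6.44, 6.31, 6.61 and 6.39 at 1, 2.5, 5 and 7.5 cGy and 7.69 at 10 cGy.

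H2AX, the histone that is phosphorylated beside DNA breaks, had the third of the highest rises in GM15510, from 37.3, 39.5 and 46.8 to 159, 177 and 149 (1.88 ± 0.171, adjusted p = 4.15e-09). It was 173, 182 and 181 and then 153, 200 and 175 in GM15036 (-0.03). Its other probe set changed by 0.29 in GM15510 (adjusted p = 0.245), so the probe sets differed in size. CCND2, a G1 cyclin of B cells, rose by 0.81 in GM15510 (adjusted p = 3.75e-06), from 343, 306 and 338 to 550, 558 and 626, while 2 other probe sets changed by -0.40 and 0.76 without a call. VAMP8, a vesicle fusion protein, rose by 0.99 in GM15510 (adjusted p = 2.76e-07), from 140, 143 and 146 to 274, 278 and 317, against -0.30 in GM15036 (adjusted p = 0.133). The ACTB ratio also differed between the doses in this line. The calls of JUND, IER2, MCL1, H2AX, CCND2 and VAMP8 were kept with that ratio as a covariate. The doses of this line did not overlap in the ratio, and the fit takes its slope from scatter within groups. In this line dose and ratio therefore cannot be told apart.

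**Figure D5:**
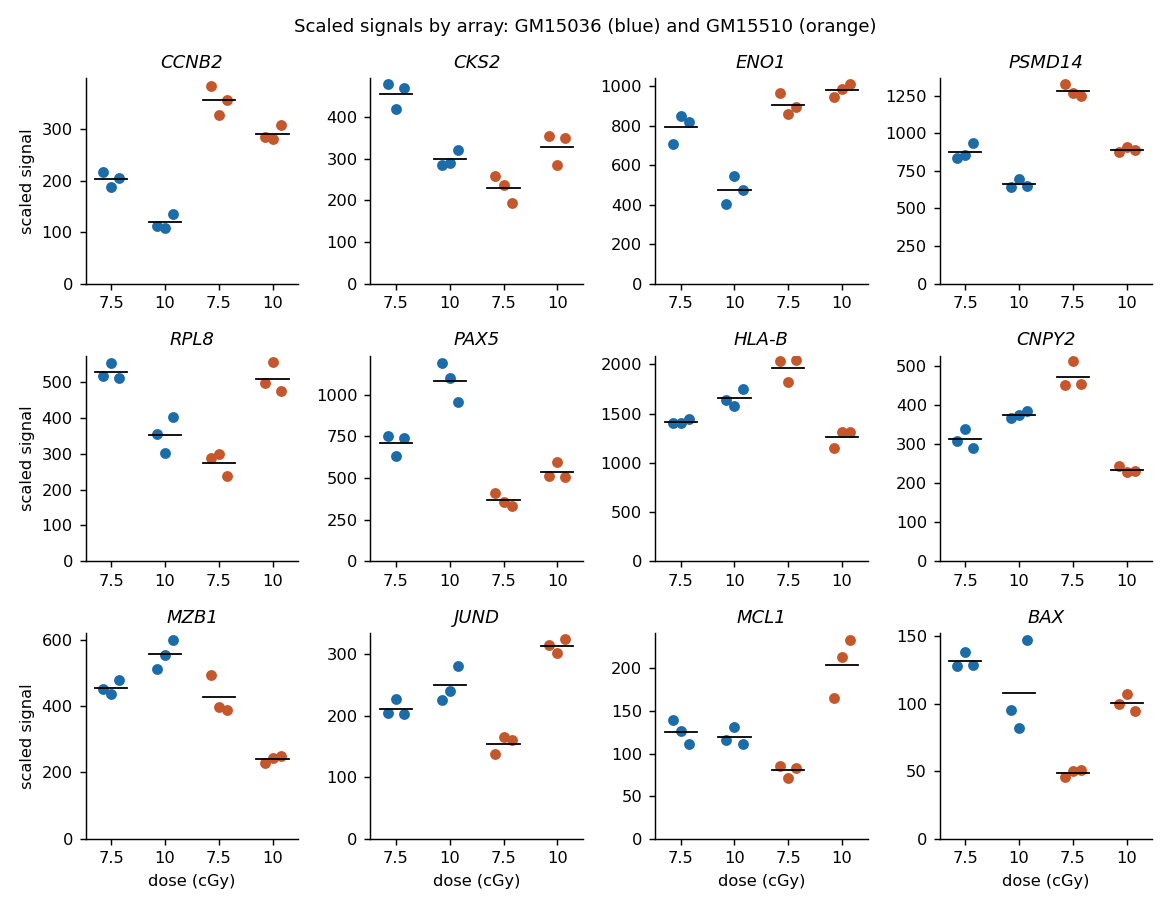
Scaled signal (linear axes from 0) of 12 genes in each array at 7.5 and 10 cGy, with GM15036 in blue and GM15510 in orange; points are arrays and bars are means of 3. CCNB2 and PSMD14 were lower at 10 cGy in both lines and PAX5 higher in both, whereas CKS2 and RPL8 moved in opposite directions and HLA-B, CNPY2 and MZB1 fell in GM15510, JUND, MCL1 and BAX rose there, and ENO1 fell in GM15036.

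Of 15 radiation-response genes reported whatever their test, none was called in GM15036, and in GM15510 BAX, DDB2 and HIPK2 were higher and FAS lower, against 5.1% higher and 4.86% lower over all genes. In the wider list of 21 p53 target genes, CCNG1 and PPM1D were lower in GM15036, by 0.38 and 0.60, and 3 were higher and 1 lower in GM15510. CDKN1A, the cell cycle inhibitor that p53 induces, was 219, 241 and 209 and then 231, 232 and 245 in GM15036, and 177, 205 and 177 and then 157, 178 and 181 in GM15510. Its changes of 0.08 and -0.11 were smaller than their errors (SE 0.142). MDM2, which degrades p53, changed by 0.55 (adjusted p = 0.158) and 0.20 (adjusted p = 0.7). GADD45A changed by -0.34 and 0.13, PCNA by -0.16 and -0.11, XPC by 0.03 and 0.43, TNFRSF10B by 0.04 and -0.16, SESN1 by 0.14 and 0.18, HMOX1 by -0.03 and 0.36 and MYC by 0.02 and 0.32, none called. EGR1 changed by 0.61 in GM15036 (adjusted p = 0.0939) and by 0.12 in GM15510, and NFKBIA by 0.31 and -0.35.

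BAX, which opens mitochondria during apoptosis, went from 45.8, 50.1 and 50.8 to 99.9, 107 and 94.5 in GM15510, a rise of 0.98 ± 0.167 (adjusted p = 1.52e-04). GM15036 had 128, 138 and 129 and then 95.4, 82.1 and 147, which overlap, with a change of -0.32 (adjusted p = 0.329). Another BAX probe set rose in GM15510 as well (adjusted p = 0.00277) and fell by 0.83 in GM15036 (adjusted p = 0.0283). The BAX level of GM15510 at 7.5 cGy, 5.72 on the log2 scale, lay within the 5.46 to 5.93 of the lower doses, and 6.70 at 10 cGy was above them. DDB2, a damage sensor of nucleotide excision repair, was 87, 51.4 and 80.5 and then 103, 109 and 99.5 in GM15510 (0.52, adjusted p = 0.0434). FAS, a death receptor, fell by 0.65 there (adjusted p = 0.00559), from 358, 414 and 297 to 213, 237 and 221, and so did 2 of its 3 other probe sets, by 0.89 and 0.79. Whether the calls of DDB2, which is near the threshold, and of FAS hold in the alternative fits is not given here. CASP8, the caspase that FAS engages, went from 54, 51.3 and 41.1 to 13.4, 22.6 and 11 in GM15510, a fall of 1.46 (adjusted p = 3.05e-05), against 0.34 in GM15036. HIPK2, a kinase of p53, was higher at 10 cGy on every array, with 25.9, 25.6 and 37.6 and then 43.4, 58.5 and 46.2 in GM15036 and 21.4, 15.5 and 20.6 and then 45.6, 42.2 and 49.3 in GM15510. Its mean step was 0.89 ± 0.200 (adjusted p = 0.006), its GM15510 call is lost without array 2 at 7.5 cGy (adjusted p = 0.0505), and its other probe set changed by 0.16 and 0.19. XRCC6, the Ku70 protein of end joining, fell by 0.42 in GM15036 (adjusted p = 0.00407), from 548, 607 and 596 to 417, 424 and 465, and changed by -0.12 in GM15510.

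Of the 712 probe sets called for the mean step, some had no overlap of doses in either line. Among those with 1 gene symbol, 67 such probe sets were higher and 122 lower in both lines. Over all tested probe sets, called or not, 2.42% were apart in the same direction in both lines. PRRC2C, a protein of stress granules, had the highest mean step, 1.31 ± 0.1 (adjusted p = 2.46e-10). It went from 169, 148 and 132 to 217, 215 and 263 in GM15036 and from 50.6, 45.9 and 53.9 to 232, 196 and 215 in GM15510. The GM15036 call is lost without array c at 7.5 cGy (adjusted p = 0.0715). Its 5 other probe sets changed by -0.08 to 0.28 in the 2 lines, none called, so that the rise belongs to 1 probe set. PPP2R1B, a scaffold of phosphatase 2A, rose by 0.83 in GM15510 (adjusted p = 0.00192) and had a mean step of 0.74 ± 0.126 (adjusted p = 3.76e-04). Its rise of 0.65 in GM15036 (adjusted p = 0.0332) is lost without array c at 7.5 or b at 10 cGy (adjusted p up to 0.199). The 3 other PPP2R1B probe sets were not called. CDYL, a chromatin corepressor, went from 109, 132 and 130 to 71.8, 73 and 82.5 in GM15036 and from 227, 201 and 168 to 101, 74.6 and 88.7 in GM15510, a mean step of -0.91 ± 0.109 (adjusted p = 3.05e-06). Its other probe sets changed by -1.04 and 0.24 in GM15036 and by 0.07 and -0.18 in GM15510. HNRNPD, which binds AU-rich messages, had a mean step of -0.68 ± 0.109 (adjusted p = 1.62e-04) on a probe set, whereas another rose by 0.50 in GM15510 (adjusted p = 3.19e-04). PSMD14, PRDX3, HSP90AB1 and PAX5, described above, belong to the same class of concordant steps.

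Other genes moved in opposite directions in the 2 lines. PPP1CB, a catalytic subunit of phosphatase 1, went from 145, 180 and 174 to 105, 93.1 and 70.6 in GM15036 (-0.88, adjusted p = 5.39e-05) and from 122, 144 and 128 to 188, 197 and 195 in GM15510 (0.55, adjusted p = 0.00205). CBFB, the partner of RUNX factors, fell by 0.54 in GM15036 and rose by 0.53 in GM15510 (adjusted p = 5.84e-04 and 1.25e-04), from 411, 451 and 465 to 304, 330 and 279 and from 435, 450 and 480 to 670, 636 and 674. Both kept their GM15036 call in every alternative and whichever array was left out, and their other probe sets were not called. DCP2, which removes the cap from messages, changed by -0.80 and 0.67 (adjusted p = 9.92e-04 and 0.00187), and LRRC59, a ribosome receptor of the endoplasmic reticulum, by -0.61 and 0.47 (adjusted p = 9.94e-04 and 0.00343).

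Some of the firmest differences between the lines came from a fall in GM15510. NUP43, a nuclear pore subunit, went from 292, 310 and 256 to 116, 122 and 97.8 in GM15510, a fall of 1.33 (adjusted p = 4.35e-10). It had 453, 451 and 448 and then 540, 526 and 494 in GM15036 (0.20, adjusted p = 0.33). The difference of the NUP43 steps was -1.53 ± 0.153 (adjusted p = 1.24e-07). RTN4, which shapes the endoplasmic reticulum, fell by 0.97 in GM15510 (adjusted p = 4.15e-09), from 885, 969 and 981 to 496, 475 and 470, while 2 other probe sets changed by -0.18 and -0.04. Its rise of 0.35 in GM15036 (adjusted p = 0.0192) is lost without array a or c at 7.5 or a at 10 cGy (adjusted p up to 0.121) and came to -0.00 under median centring. TXN, thioredoxin, rose by 1.24 in GM15510 on 1 probe set (adjusted p = 1.80e-04) and changed by -0.24 on the other. XAF1, an interferon-induced antagonist of apoptosis inhibitors, rose in GM15036, from 126, 113 and 121 to 227, 207 and 192 (0.78, adjusted p = 0.00105), against -0.18 in GM15510, a rise that median centring left at 0.44 (adjusted p = 0.184).

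In GM15036 the largest changes came from dim probe sets. The 10 highest in GM15036 whose doses did not overlap were PHACTR2, FBXL7, HCRP1, ADGRE1, CRELD1, SYNJ2, CACFD1, HPS1, PTAFR and PRODH2, with changes of 1.36 to 1.79 and mean scaled signals of 10.8 to 27, and 8 of them lose the call without some 1 array. The 10 lowest were PRODH, TBL1X, NAGPA, SERPINB1, ELF1, SNORA21, MGST3, NSDHL, KIF3C and TSR2, with -2.18 to -1.48 and signals of 9.7 to 26.3, and 6 of them lose it. SERPINB1, a protease inhibitor, went from 23.6, 13.6 and 23.5 to 1.98, 8.63 and 1.28 (-1.69, adjusted p = 0.00406), and its other probe set changed by -0.22. ELF1, an ETS factor of lymphocytes, changed by -1.68 (adjusted p = 0.00166) and by 0.38 on its other probe set. ADGRE1 rose by 1.62 (adjusted p = 0.00219), from 5.92, 0.574 and 10.5 to 26.3, 26.4 and 16.7.

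In GM15510 the 10 highest were TRMT5, PRRC2C, H2AX, KLC2, BAIAP3, PLEKHA2, EEF1D, PCBP4, NRP2 and YWHAZ, with 1.43 to 2.42 and mean scaled signals of 10.1 to 240, and 4 of them lose the call without some 1 array. The 10 lowest were SPN, MACF1, SURF1, MBTD1, JAG2, COX4I1, CASP8, TRIM25, NSUN5P1 and ABITRAM, with -2.66 to -1.35 and signals of 9.36 to 87.8, and 5 lose it. SPN, the leukocyte surface protein CD43, went from 90.9, 91.9 and 78.3 to 20.9, 22.4 and 0.512 (-2.66 ± 0.465, adjusted p = 2.11e-04), but 2 other SPN probe sets changed by 0.54 and 0.23. For the mean step the highest were PRRC2C, KIAA1549L, HIPK2, MFHAS1, PRKCSH, TRAPPC6A, HAUS5, EML3, PPP2R1B and PRR14L and the lowest SNORA21, BUB1, DCLRE1A, TCTN1, CDYL, SLC2A3, PREPL, HNRNPD, HDLBP and PRDX3, with signals of 10.5 to 161 and of 11 to 260, of which 7 and 2 lose the call without some 1 array. BUB1 is a mitotic checkpoint kinase and DCLRE1A repairs DNA crosslinks. The BUB1 probe set was dim, with group means of 5.71 to 17.6, and its call is lost without any 1 of 7 arrays. Another BUB1 probe set changed by -0.21 in GM15036 and 0.20 in GM15510, with a mean step of -0.01 (adjusted p = 0.984).

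Where a gene had several probe sets, these often differed. Of the called probe sets of GM15036, 268 had another tested probe set of the same gene. For 154 of them all others had the same sign, for 39 another was called in the same direction and for 4 in the opposite one. In GM15510 639 had another, and the counts were 366, 172 and 40.

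Across the whole dose range, most called probe sets had an extreme at 10 cGy. The 10 cGy mean was the highest or the lowest of the 5 doses for 476 of the 532 calls in GM15036 and for 1056 of the 1301 in GM15510, against 53.3% and 43.6% of all probe sets. The 7.5 cGy mean was an extreme for 245 and 713 of the calls, against 39.5% and 35.7% of all. Because the calls were chosen on these same means, the counts describe the calls and test nothing. CENPF and CNPY2 in GM15510, each on the first probe set described above, had both, with 7.5 cGy highest and 10 cGy lowest of the 5 (8.41 and 7.68, and 8.90 and 7.90, as log2 means).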

How the data were processed

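RNA of the 30 samples was hybridised to Affymetrix human 3-prime expression arrays, 3 per line and dose. The deposited values are MAS5 signal intensities on a linear scale, per the submitters' processing notes and the file values. The MAS5 version and scaling target are not given in the sources used here. Labelling was biotin-based from the 3-prime end, per the labels' protocols, so each probe set reads the end of a transcript. Probe set names ending in _x_at may read several related genes.

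The arrays were scaled to 1 trimmed mean (2 to 98%, common level 50.9), a pseudocount of 4 was added and log2 was taken. The 60% of 22283 probe sets with the highest mean over the 30 arrays, 13329, were tested. Folds are therefore on the log2(signal + 4) scale, which understates changes of dim probe sets, and precision is limited by having 3 arrays per group. Cell means of the 10 groups were fitted on all 30 arrays with limma 3.58.1 in R 4.3.3 (trended eBayes, 20 residual and 12.3 prior degrees of freedom, two-sided, Benjamini-Hochberg over all tested probe sets). The difference is the GM15510 step minus the GM15036 step. The script was tested on simulated data. Platform gene symbols (19071 probe sets with 1, 1043 with several, 2169 with none) were updated by gene ID to RefSeq for 19059. A list has 1 probe set per gene.

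Genes eligible for naming were, per line, the 10 highest and 10 lowest called changes without overlap of the doses. The same was done for the mean step. Also eligible were the 10 smallest p per direction for the difference and up to 4 called members per list and step. The 15 radiation genes are given whatever their test. Of the difference and list genes only some are discussed, a selection not set by this rule. The counts of named calls under the alternatives cover that selection and the largest changes. The step, its members and all lists were chosen with earlier results of these data known. No list was tested. Same-labelled arrays at 7.5 and 10 cGy did not deviate together (r -0.0528 to 0.0184), so replicate labels were not taken as pairs. Alternatives were quantile normalization, 2 centrings, pseudocounts of 1 and 16, no filter or the upper 40%, the 12 arrays alone, each line alone, array weights, brightness, ACTB ratio or replicate label as a term, each array left out and, chosen after the brightness was seen, the 2 dimmest of the 12 left out. No arrays held identical values.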

Additional observations from a re-analysis of the deposited data

Results flagged for a closer look

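The steps of the 2 lines differed by limma's test of the difference itself, GM15510 minus GM15036, for 1123 of 13329 probe sets. The genes below are among those for which this difference was called, with its log2 size and, where one is given, its standard error and adjusted p. The values come from single probe sets. The other probe set was not called for NDUFB2 (0.17), TXN (0.05), RPS16 (-0.15), ELF1 (-0.04), SERPINB1 (0.36) and H2AX (0.56). None of the other probe sets was called for HLA-B, MCL1, CCND2, RTN4, PRRC2C and SPN. A further probe set was called in the same direction for TPI1, BAX, EEF2, PSMB1, PGK1, HLA-C, CNPY2 and RPL22. Not every gene is listed here. Each line had 3 arrays per dose. With array brightness as a covariate 909 differences were called, and with the ACTB ratio 781. Of 63 called differences of genes chosen for naming, 6 were lost with the first covariate, 11 with the second, 14 with median centring and 14 without the 2 dimmest arrays.

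Among mitotic genes the step of GM15510 lay above that of GM15036 by 0.48 for CCNB1 and 0.48 for CCNB2 (adjusted p = 0.0114 and 0.0225), by 1.04 for MAD2L1 (2.28e-04 adjusted), by 1.12 for CKS2 (7.97e-05) and by 0.78 for PTTG1 (0.00177), and CENPF was lower by comparison, at -0.82 (8.65e-05). Another CENPF probe set gave -0.21, which was not called. Without array 1 of GM15510 at 7.5 cGy the adjusted p of CCNB1 was 0.0505, and that of CCNB2 reached 0.0717 without 1 of 5 arrays. In glycolysis and hypoxia the difference was 0.86 for ENO1, 0.57 for PGK1, 1.115 for TPI1, 0.65 for HIF1A and -0.97 for ADM. PGK1 loses its call without array 3 at 7.5 cGy or 2 at 10 cGy of GM15510 (adjusted p up to 0.066). Mitochondrial and redox genes gave 0.84 for ATP5MC2, 1.11 for NDUFB2 and 1.29 for TXN. The proteasome subunit PSMB1 differed by 0.88 and the chaperonin CCT2 by 0.91, with adjusted p = 3.46e-05 and 9.73e-05.

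Genes of the ribosome and of translation differed by 1.47 for RPL8 (SE 0.173, adjusted p = 2.11e-06), 0.49 for RPL30, 0.72 for RPS16, 0.84 for RPL22, 0.83 for RPL27A and 1.18 for EEF2. EIF3H had the opposite sign, at -0.62. RPL30 loses its call without 1 of 5 arrays (adjusted p up to 0.0688).

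Antigen presentation and secretory genes had negative differences, which were -0.87 for HLA-B, -0.87 for HLA-C, -0.73 for TAP1, -0.63 for CD74, -0.69 for HSPA5, -1.17 for DNAJC3, -1.09 for MZB1, -1.26 for CNPY2, -1.45 for IGHM and -0.70 for CD38. CNPY2 had the smallest p of these (adjusted p = 1.90e-07, SE 0.130). POU2AF1 differed by 0.66.

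Positive differences were found for the immediate-early and stress genes JUND (0.77), IER2 (0.93) and ATF4 (0.75), for MCL1 (1.37), BAX (1.30), CCND2 (0.80) and H2AX (1.91), and a negative one for CASP8 (-1.80). IER2 loses its call without array a of GM15036 at 10 cGy or array 2 of GM15510 at 7.5 cGy (adjusted p up to 0.0554).

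Of the remaining genes, PPP1CB differed by 1.42, CBFB by 1.07, DCP2 by 1.47, LRRC59 by 1.08, PRRC2C by 1.39, VAMP8 by 1.29, SERPINB1 by 1.89 and ELF1 by 2.09. Differences below 0 were -1.31 for RTN4, -1.53 for NUP43, -0.96 for XAF1, -1.83 for ADGRE1 and -2.49 for SPN. The SPN call is lost without array b of GM15036 or array 3 of GM15510 at 10 cGy (adjusted p up to 0.064). Other genes named above with a called difference are TBL1X (2.84), TRMT5 (2.60), PRODH (2.44), KLC2 (2.18), MGST3 (1.61), EEF1D (1.53), DDB2 (0.83), NFKBIA (-0.66), PRODH2 (-1.46) and NSUN5P1 (-2.20).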

How the results depend on the processing

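GM15036 was the line whose count moved most. Its 532 calls became 943 with median centring, 926 with centring after scaling, 250 on the 12 arrays alone, 73 with the line alone, 187 with array weights and 58 without the 2 dimmest arrays, and leaving out single arrays gave 267 to 612. GM15510, with 1301, had 520 with median centring and 780 with the ACTB ratio as a covariate, and 876 to 1357 with single arrays left out. The mean step, 712 calls, had 192 with median centring, 86 with line as an additive block and 324 without the 2 dimmest arrays, and 505 to 746 with arrays left out. The difference, 1123 calls, had 599 without the 2 dimmest arrays and 897 to 1107 with arrays left out. Every other alternative gave counts within 1.5 times those reported.

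The replicate label as a block gave 493, 1249, 651 and 1075 calls. The labels carry no pairing, and arrays a and b of GM15036 and 3 of GM15510 correlated best with their own label.

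Under median centring 2 GM15036 changes that were called turned sign, TNFRSF17 at -0.0025 (adjusted p = 0.996) and RTN4 at -2e-04 (adjusted p = 1). A call in every alternative and with every array left out was kept by 14 of the 532, 269 of the 1301, 58 of the 712 and 235 of the 1123. The causes were not tested. Fits on fewer arrays have fewer degrees of freedom, and the part of this was not tested either. Fitted alone, with the same number of arrays each, GM15036 had 73 calls and GM15510 had 1293.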

Other observations

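Of 43 splicing factor genes 3 were lower in GM15036, and in GM15510 9 were higher and 7 lower. Of 40 G1/S and replication genes 2 were lower in GM15036, against 5 higher and 6 lower in GM15510. Among 32 DNA repair genes XRCC6 was the single call in GM15036. In GM15510 RPA3, a subunit of the single-strand binding protein, rose by 0.88, while BRCA1, MSH6 and XRCC2 fell by 0.67, 0.50 and 0.72. Of 27 antioxidant genes MGST3 and PRDX3 were lower in GM15036, and in GM15510 GPX1 rose by 0.51, PRDX2 by 0.55 and TXN by 1.24 while PRDX3 and PRDX4 fell.

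Of 34 interferon-stimulated genes XAF1 was higher in GM15036. In GM15510 OAS2, an antiviral enzyme, rose by 0.84 and BST2, SP110 and TAP1 fell. Of 23 NF-kB target genes EBI3 rose by 0.70 in GM15036, REL rose by 0.96 in GM15510 and the chemokine CCL4 fell by 0.77 there. Of 16 cholesterol synthesis genes none was called in GM15036 by limma's adjusted p, and in GM15510 FDPS and PMVK rose by 0.42 and 0.89 and INSIG1 fell by 0.67.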
